A study of Mus musculus with 28 samples.

Results

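The mitochondrial ribosomal protein genes were taken as every gene whose symbol is Mrpl or Mrps followed by a number and an optional letter from A to C, with a mean of at least 1 CPM (counts scaled to a fixed library total) over the 28 libraries. Of 20891 genes in the files, 77 had such a symbol and all 77 passed, the lowest being Mrpl23 at a mean of 16.5 CPM, so no gene lay just outside the minimum. They comprised 50 genes of large-subunit proteins, 26 genes of small-subunit proteins and Mrps36, which carries the name but is now assigned to the alpha-ketoglutarate dehydrogenase complex. The genes were spread over 17 chromosomes.

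The libraries were RNA-seq of cultured CD4 T cells from the spleens of C57BL/6 mice, 4 wild type (WT) and 3 JMJD3fl/flCD4cre (knockout, KO). In the KO mice a floxed JMJD3 gene, official symbol Kdm6b, is recombined by Cre under Cd4 control, which is active in T cells from their development in the thymus onward, so all KO groups share that deletion. All cultures began with naive CD4 cells sorted as CD44-, CD62L+ and CD25-, and were activated on plates that had been coated with antibodies to CD3 and CD28, each at 1 µg/ml. Th17n cultures, which drive the non-pathogenic form of interleukin-17-producing helper cells, had IL-6 at 25 ng/ml and TGFb1 at 2 ng/ml, and iTreg cultures, which drive induced regulatory T cells, had TGFb1 at 2 ng/ml alone. Each was kept without drug (control) or with 100 µM DFMO, and live cells were sorted at 68 h. By the numbers in the library titles, every animal gave 1 library of each of the 4 cultures. The 8 groups thus held 4 WT or 3 KO libraries each, listed below in the order of the animals. DFMO blocks ornithine decarboxylase, the first enzyme of polyamine synthesis, and the comparisons ask what polyamine depletion does to these genes in each culture and whether JMJD3, a histone H3 lysine demethylase, is part of it.

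Mitochondrial ribosomes translate the few proteins encoded by mitochondrial DNA, all of them core parts of the respiratory chain and ATP synthase. Their ribosomal RNAs come from mitochondrial DNA, whereas every ribosomal protein is encoded in the nucleus, made in the cytosol and imported. The large subunit joins amino acids and holds the exit tunnel, the small subunit decodes the messenger RNA, and both must be assembled in matched amounts. In T cells, activation is known to be accompanied by mitochondrial growth and translation.

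The genes' start regions were read from RefSeq, build GRCm38.p6, in a window of 250 bases before to 50 bases after each start, which held an entry for 68 of the 77 genes. Of 6 words searched on both strands, the one with the largest ratio of its share in members to its share in tested genes was AAGATGGC, found in binding sites of the transcription factor YY1. It occurred in 12 of 68 members (17.6%), in 4.95% of the 8671 matched promoters of tested genes and in 2.87% of all 27025 windows. These 12 sites are shown for that reason, and the values of their genes under DFMO are given further on. The capitals mark the word, and each site is written on the strand that carries it.
Mrpl35, chr6:71823744-71823771: ggcaggctgcAAGATGGCggcttccatc
Mrpl37, chr4:107066823-107066850: tgcacgggcaAAGATGGCggcgtccagg
Mrpl42, chr10:95501905-95501932: agattgaagcAAGATGGCgagcgcgcgg
Mrpl49, chr19:6057722-6057749: ttgaggcgccAAGATGGCagcagcggtg
Mrps7, chr11:115604148-115604175: gacagcggccAAGATGGCtgcccccgcg
Mrps18a, chr17:46111005-46111032: ggtgcgttccAAGATGGCggccctcagg
Mrps24, chr11:5707652-5707675: gcgccggcccAAGATGGCgtggtc
Mrps27, chr13:99344790-99344817: ggtgcgctccAAGATGGCggctcccatg
Mrpl32, chr13:14613262-14613287: tttccgggtaAAGATGGCagagcgcg
Mrpl36, chr13:73330969-73330996: gccaggaagaAAGATGGCgtaaggtcac
Mrps11, chr7:78783014-78783041: ggaagacagaAAGATGGCggcgcccgta
Mrps12, chr7:28742003-28742030: tttccactccAAGATGGCtgcgtccatg
The first 8 lie on the gene's own strand, with the first base of the word 12 to 37 bases after the start, and the last 4 lie on the opposite strand. In 6 of the 8 (Mrpl35, Mrpl49, Mrps7, Mrps18a, Mrps24 and Mrps27) the ATG inside the word is the annotated start codon. Other words were searched in the same way. The ETS core CCGGAAG occurred in 33.8% of members, against 19.5% of promoters of tested genes and 9.14% of all windows, a wider gap in percentage points than that of AAGATGGC. The consensus site of NRF1, a factor known for driving mitochondrial genes, occurred in 4.41%, 2.27% and 0.981% respectively. The E-box CACGTG, a site of MYC and other factors, occurred in 7.35% of members against 10.4% and 7.24%. CCAAT occurred in 39.7%, 39.6% and 38.0%, and TATAAA in 5.88%, 6.98% and 14.2%. A match describes letters in the window and not a bound site.

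The 250 bases upstream of 2 further genes are shown because they gave the largest rise and the largest fall among members in Th17n cells. In Mrpl41 (chr2:24975099-24975348, minus strand) the capitals mark ATTGG, which is CCAAT on the other strand. The Mrpl45 window (chr11:97315466-97315715, plus strand) held none of the 6 words.
Mrpl41: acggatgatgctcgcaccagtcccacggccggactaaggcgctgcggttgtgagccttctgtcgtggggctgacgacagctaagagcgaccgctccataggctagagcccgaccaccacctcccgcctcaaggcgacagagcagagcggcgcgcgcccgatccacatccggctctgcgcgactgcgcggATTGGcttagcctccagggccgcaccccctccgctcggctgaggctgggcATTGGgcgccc
Mrpl45: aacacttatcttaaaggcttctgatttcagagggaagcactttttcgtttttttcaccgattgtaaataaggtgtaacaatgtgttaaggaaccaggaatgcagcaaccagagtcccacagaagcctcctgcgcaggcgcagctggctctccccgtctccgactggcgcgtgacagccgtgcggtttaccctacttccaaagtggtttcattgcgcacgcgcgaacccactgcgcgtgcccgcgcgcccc
The Mrpl41 window was 68.8% G or C with 27 CpG dinucleotides, and the Mrpl45 window was 54.4% G or C with 19.

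Library totals ran from 2226914 to 4759290 estimated counts. At gene level Kdm6b, the targeted gene, was lower in the KO libraries but present in all of them. In control Th17n it was 47.0 ± 11.5 CPM in WT (SD, n = 4; 33.4 to 60.5) and 34.0 ± 8.06 in KO (n = 3; 28.6 to 43.3), ranges that overlapped, and in DFMO Th17n it was 54.4 ± 12.9 (36.0 to 63.9) against 27.98 ± 4.51 (24.3 to 33.0). In control iTreg it was 43.2 ± 4.63 (37.9 to 48.7) against 31.1 ± 2.10 (29.1 to 33.2), and in DFMO iTreg 49.0 ± 7.48 (41.9 to 59.2) against 24.5 ± 4.13 (19.8 to 27.6). Gene-level values do not separate the floxed exons from the rest. The 9 T-cell markers summed to 2917 to 4374 CPM, and in sums over whole marker lists B-cell genes reached 25.8 CPM, CD8 genes 25.8, dendritic-cell genes 18.1, NK-cell genes 10.98 and myeloid genes 5.01, with C1qa at 0 in every library. Il17a was 151 ± 80.5 CPM in control WT Th17n (n = 4) and at most 0.986 in control WT iTreg, and Foxp3 was 9.63 ± 3.71 and 281 ± 64.6. The sum of the 6 Treg markers went the other way. It was 1954 to 2476 CPM in control WT Th17n and 1476 to 1849 in control WT iTreg. A library stood apart within its group for the members: WT DFMO iTreg library 2 had a summed member level of 6250 CPM where libraries 1, 3 and 4 had 7167, 7527 and 7837, and results that rest on it are given without it below.

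As a group the 77 genes were well expressed. On the TPM scale, which is per length, their mean levels had a median of 78.6, against 12.5 over all tested genes. The median was 76.95 for large-subunit and 82.8 for small-subunit genes. The highest was Mrpl30, a large-subunit gene with a bacterial counterpart, at 338 ± 32.6 TPM (SD, n = 28 libraries; 289.7 to 409.2), followed by Mrpl33 at 273, Mrpl52 at 253, Mrpl42 at 248 and Mrps21 at 207. The lowest was Mrpl1, whose bacterial counterpart forms the stalk at the exit site, at 11.98 ± 3.22 TPM (6.32 to 18.4). Genes whose protein products share 1 particle thus differed widely in RNA level per length. For 32 members some exon bases also belong to another gene, and for 6 this was at least 30% of the exon bases: Mrpl53 (88.0%, Gm42688), Mrps25 (69.8%, Nr2c2), Mrps34 (63.4%, Mapk8ip3), Mrpl19 (36.0%, Gcfc2), Mrpl43 (33.4%, Twnk) and Mrps18b (30.5%, Gm16279). Mrps34 also shares 37.0% of its exon bases with Nme3. Gm42688 and Nme3 lie on the same strand as the member, so counting by strand would not separate them. Whether counting was by strand is not stated, so values of these 6 are uncertain.

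The summed RNA level of the 77 genes was higher with DFMO in every animal and in both cultures. In WT Th17n the sum, in CPM scaled by TMM (the normalization of edgeR), went from 5248 ± 101 (SD, n = 4; 5126 to 5331) to 6195 ± 155 (6021 to 6397), and in KO Th17n from 4978 ± 122 (n = 3; 4858 to 5101) to 6054 ± 246 (5781 to 6257). In WT iTreg it went from 5783 ± 212 (5555 to 5967) to 7195 ± 687 (6250 to 7837), and in KO iTreg from 5597 ± 68.0 (5539 to 5672) to 6597 ± 375 (6243 to 6989). DFMO and control groups did not overlap in any of the 4 pairs. Within animals, the ratio of DFMO to control was 1.18 ± 0.047 in WT Th17n, 1.22 ± 0.078 in KO Th17n, 1.24 ± 0.082 in WT iTreg and 1.18 ± 0.053 in KO iTreg, and it was above 1 in each of the 14 pairs of libraries. The size in iTreg depended on scaling: on the deposited TPM the mean ratios were 1.22, 1.29, 1.09 and 1.12 in the same order. TMM factors were 1.03 to 1.07 in control iTreg libraries, 0.891 to 1.003 in DFMO iTreg libraries and 0.959 to 1.05 in Th17n libraries. In these bulk libraries, fewer cells of a kind and less RNA per cell cannot be told apart.

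**Figure D1:**
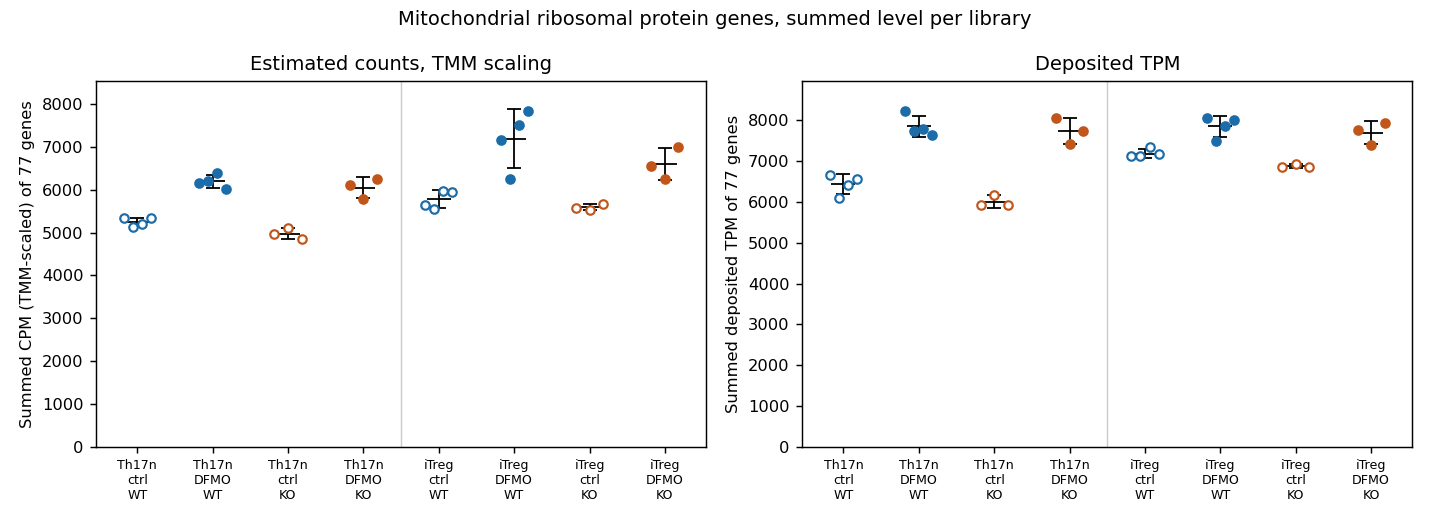
Summed level of the 77 genes in each of the 28 libraries, by group, as TMM-scaled CPM (left) and as TPM (right); each point is a library, and bars are group means ± SD (open, control; filled, DFMO; blue, WT; orange, KO). On the CPM scale the DFMO libraries lie above the control libraries of the same culture and genotype in all 4 pairs of groups, and the iTreg difference is smaller on the TPM scale.

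Gene by gene, 50.6% of the members rose with DFMO in WT Th17n, 54.5% in KO Th17n, 50.6% in WT iTreg and 40.3% in KO iTreg cells. In WT Th17n cells this was 39 of 77, while 5 fell and 33 were not called, where 23.4% of all 10985 tested genes rose and 28.4% fell. In KO Th17n cells 42 rose and 8 fell, where 21.1% and 24.6% of all genes did. In WT iTreg cells 39 rose and 6 fell, where 23.1% and 24.3% did, and in KO iTreg cells 31 rose and 4 fell, where 19% and 19.1% did. A call is an edgeR quasi-likelihood Benjamini-Hochberg adjusted p under 0.05 over all tested genes, and all 77 members were among them. The members' median log2 change was 0.28, 0.37, 0.28 and 0.16 in these 4 comparisons, and that of all tested genes was -0.07, -0.06, -0.05 and -0.03. Members ran from -0.55 to 1.09, -0.66 to 1.26, -0.61 to 1.37 and -0.68 to 1.18 on the log2 scale. Above the median of all genes lay 61, 64, 64 and 55 of the 77.

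Both subunits took part. Of the 50 large-subunit genes, 25 rose and 4 fell in WT Th17n, 26 and 6 in KO Th17n, 24 and 4 in WT iTreg, and 20 and 4 in KO iTreg. Of the 26 small-subunit genes, 14 rose and 1 fell, 15 and 2, 15 and 2, and 11 and 0. The split in iTreg cells depended on the scale. With limma on log2(TPM + 1), 25 rose and 15 fell in WT iTreg and 23 rose and 9 fell in KO iTreg, while in Th17n the splits were 39 to 5 in WT and 46 to 4 in KO. On that scale the median of all genes in WT iTreg was -0.19 and that of the members 0.05. Relative to all genes the members' median was thus higher by 0.24 on the TPM scale and by 0.33 on the TMM scale, with 56 and 64 of 77 above the median of all genes.

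Without WT DFMO iTreg library 2, 47 members rose and 5 fell in WT iTreg. T-cell markers moved too. Of the 9, 6 fell and 1 rose in WT Th17n, 4 fell and 1 rose in KO Th17n, and 3 rose and 3 fell in each iTreg comparison. The CD8 genes summed to 14.0 to 20.9 CPM in control and 6.09 to 10.1 with DFMO in WT Th17n, and to 22.4 to 25.8 and 10.9 to 12.4 in KO Th17n. The Th17 markers summed to 1047 to 1451 CPM in control and 716 to 855 with DFMO in KO Th17n, with no overlap, and to 1002 to 2054 and 473 to 1117 in WT Th17n. The part of these markers in the members' change was not tested.

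**Figure D2:**
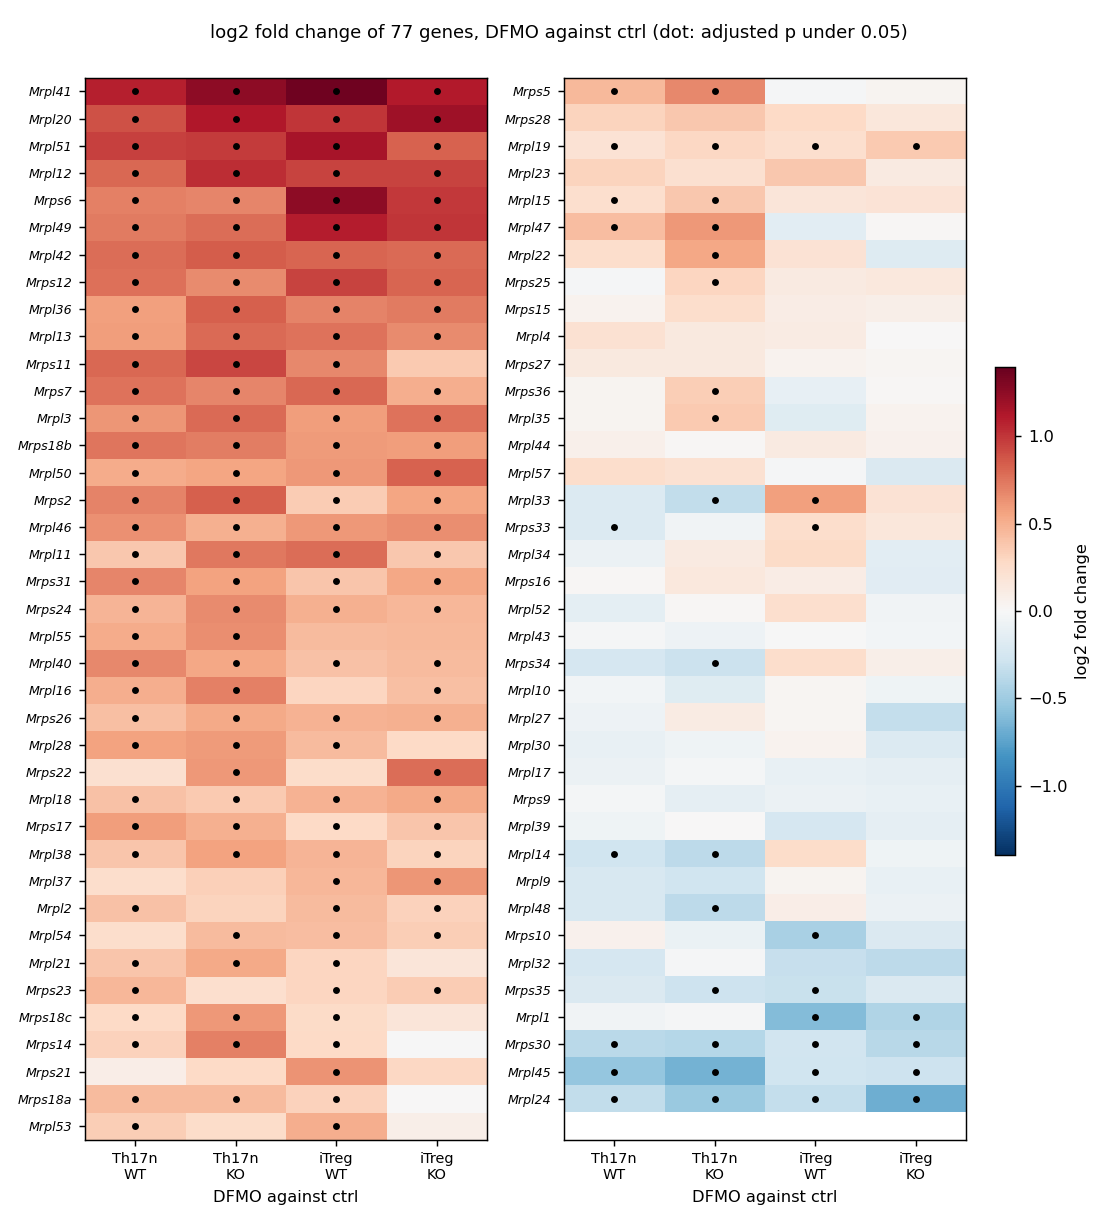
Log2 change with DFMO (colour) of each of the 77 genes (rows, sorted by their mean over 4 comparisons) in WT Th17n, KO Th17n, WT iTreg and KO iTreg cells; a dot marks an edgeR adjusted p under 0.05. From the top, Mrpl41, Mrpl20 and Mrpl51 rose in all 4, and Mrpl45, Mrpl24 and Mrps30 near the bottom fell in all 4.

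The 4 DFMO comparisons share animals but no libraries. Called higher in all 4 were 25 members (32.5%), where 11.4% of all tested genes were, and called lower in all 4 were 3 (3.90%), where 10.9% were. The 25 comprised 16 large-subunit genes (Mrpl3, Mrpl11, Mrpl12, Mrpl13, Mrpl18, Mrpl19, Mrpl20, Mrpl36, Mrpl38, Mrpl40, Mrpl41, Mrpl42, Mrpl46, Mrpl49, Mrpl50 and Mrpl51) and 9 small-subunit genes (Mrps2, Mrps6, Mrps7, Mrps12, Mrps17, Mrps18b, Mrps24, Mrps26 and Mrps31). The 3 were Mrpl24, Mrpl45 and Mrps30, whose products all sit in the large subunit. Not called in any comparison were 19 members (24.7%), and 28.6% of all genes were not. On the TPM scale 18 of the 25 and 2 of the 3 remained. With each of the 28 libraries left out in turn, 22 to 26 members were higher in all 4, and 19 of the 25 were so every time.

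Mrpl41, which encodes a large-subunit protein without bacterial counterpart, gave the largest rise in WT Th17n, KO Th17n and WT iTreg. In WT Th17n its levels were 29.2, 24.6, 27.0 and 24.9 CPM in the control libraries and 60.7, 58.1, 54.9 and 51.9 with DFMO. In KO Th17n they were 28.9, 26.3 and 24.2 in control and 69.8, 54.4 and 63.8 with DFMO. Every DFMO library lay above every control library, and WT and KO ranges lay close together. In WT iTreg Mrpl41 was 31.2, 25.1, 25.5 and 33.5 CPM in control and 73.6, 74.2, 76.99 and 70.2 with DFMO, and in KO iTreg it was 31.9, 36.6 and 30.1 in control and 79.6, 60.7 and 72.2 with DFMO. The groups were again separate. The log2 change was 1.09 (SE 0.11, edgeR adjusted p = 2.503e-09) in WT Th17n, 1.26 (SE 0.13, adjusted p = 9.226e-09) in KO Th17n, 1.37 (SE 0.11, adjusted p = 7.716e-11) in WT iTreg and 1.11 (SE 0.13, adjusted p = 1.238e-07) in KO iTreg.

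Mrpl12 forms the stalk of the large subunit, where translation factors dock, and is also known to bind the mitochondrial RNA polymerase. Its control levels in WT Th17n were 93.2, 91.4, 86.4 and 96.3 CPM, and with DFMO they were 170, 169, 161 and 142. In KO Th17n they were 57.8, 79.2 and 74.1 in control and 147, 142 and 146 with DFMO. DFMO libraries were all above control libraries, and the KO control library 1 was the lowest of all. In WT iTreg Mrpl12 was 108, 95.1, 120 and 104.5 CPM in control and 198, 165, 224 and 239 with DFMO, and in KO iTreg 85.4, 90.5 and 109 in control and 195, 162 and 192 with DFMO. Groups did not overlap here either, though WT DFMO library 2 was the lowest of its group. The log2 changes were 0.81 (SE 0.11, edgeR adjusted p = 1.945e-07), 1.04 (SE 0.13, adjusted p = 1.028e-07), 0.95 (SE 0.11, adjusted p = 1.768e-08) and 0.94 (SE 0.12, adjusted p = 6.772e-07) in the order WT Th17n, KO Th17n, WT iTreg, KO iTreg.

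Mrps12, the homologue of the bacterial protein at the decoding centre that streptomycin resistance maps to, rose by a log2 change of 0.78 (SE 0.14), 0.66 (SE 0.17), 0.95 (SE 0.14) and 0.82 (SE 0.17) in the same order, each with an edgeR adjusted p of at most 0.00173. In WT Th17n its levels were 43.7, 38.4, 29.6 and 35.3 CPM in control and 55.7, 58.8, 70.7 and 66.5 with DFMO. The control and DFMO ranges were separate, with a gap smaller than the range inside each group. Mrpl20, a large-subunit gene with a bacterial counterpart, rose from 66.9, 67.6 and 65.5 CPM to 146, 129 and 160 in KO Th17n, and from 56.8, 70.3 and 54.5 to 131, 129 and 153 in KO iTreg. Its log2 changes were 0.89, 1.12, 1.00 and 1.18 over the 4 comparisons. Among the other members with the largest rises, Mrpl51 changed by 0.95, 0.98, 1.15 and 0.83, and Mrpl49 by 0.73, 0.78, 1.09 and 1.00 on the log2 scale. Mrpl42 changed by 0.78, 0.85, 0.81 and 0.80, so the 4 cultures gave near-equal values. Mrps11 rose by 0.80 (SE 0.13), 0.94 (SE 0.17) and 0.67 (SE 0.13) in WT Th17n, KO Th17n and WT iTreg, and its change in KO iTreg was 0.36 (SE 0.15, edgeR adjusted p = 0.0629), where the groups overlapped.

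**Figure D3:**
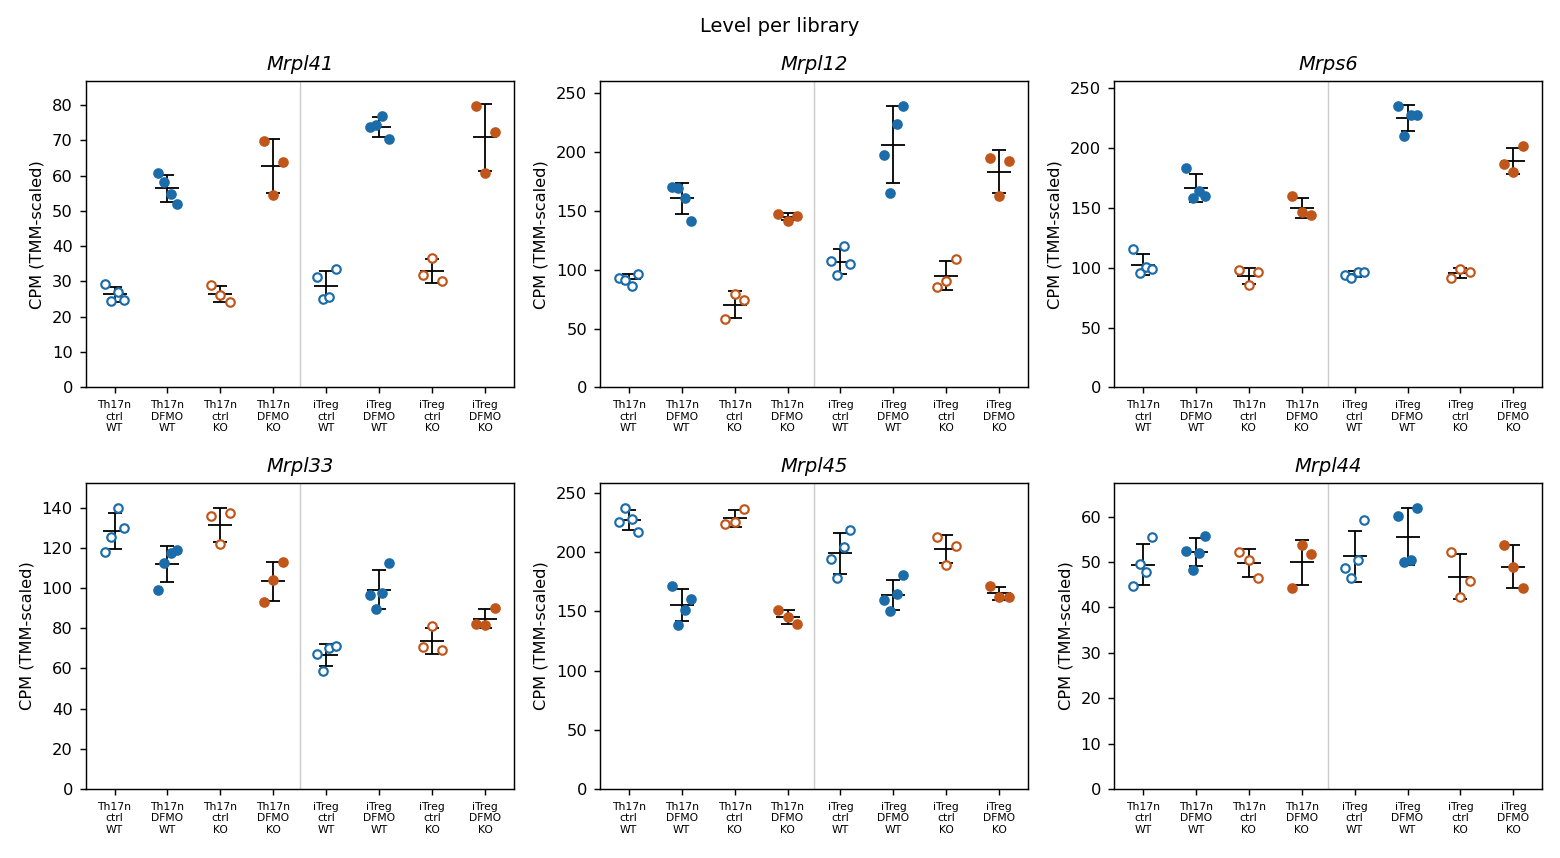
CPM of Mrpl41, Mrpl12, Mrps6, Mrpl33, Mrpl45 and Mrpl44 in every library by group; each point is a library and bars are means ± SD (open, control; filled, DFMO; blue, WT; orange, KO). Mrpl41, Mrpl12 and Mrps6 are higher with DFMO in all 4 pairs of groups, Mrpl45 is lower, Mrpl33 has a lower mean with DFMO in Th17n and a higher one in iTreg, and the Mrpl44 groups overlap.

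The members that fell were few. Called lower in any of the 4 comparisons were 11 of the 77, where 4294 of all 10985 tested genes were. Both subunits were among them. The 3 lower in all 4 were of the large subunit, which makes up 50 of the 77. Mrpl45 is the protein that ties the mitochondrial ribosome to the inner membrane beside the exit tunnel. In WT Th17n its levels were 226, 237, 228 and 217 CPM in control and 172, 139, 152 and 160 with DFMO, and in KO Th17n 224, 225 and 237 in control and 151, 145 and 139 with DFMO. All DFMO libraries were lower than all controls. In WT iTreg they were 195, 179, 204 and 219 in control and 160, 150, 165 and 181 with DFMO, and in KO iTreg 213, 190 and 205 in control and 172, 163 and 162 with DFMO. In WT iTreg the groups overlapped, with control library 2 under DFMO library 4, and each animal's DFMO library was still under its own control. The log2 change was -0.55 (SE 0.075, edgeR adjusted p = 4.45e-07), -0.66 (SE 0.088, adjusted p = 3.903e-07), -0.28 (SE 0.076, adjusted p = 0.00304) and -0.29 (SE 0.088, adjusted p = 0.00881). Without KO control iTreg library 1 the last was -0.24 and not called (adjusted p = 0.0744).

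Mrpl24, a large-subunit gene with a bacterial counterpart, fell by a log2 change of -0.35 (SE 0.11), -0.52 (SE 0.13), -0.33 (SE 0.11) and -0.68 (SE 0.13). In KO iTreg its levels were 94.5, 96.2 and 119 CPM in control and 68.6, 56.9 and 68.5 with DFMO, with no overlap. In WT iTreg the groups overlapped, and without WT DFMO iTreg library 2 the change was -0.25 and not called (edgeR adjusted p = 0.0545). Part of the Mrpl24 exons, 26.3% of their bases, belongs also to Rrnad1.

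Mrps30, named for the small subunit but part of the large one, fell by -0.37 (SE 0.10), -0.40 (SE 0.12), -0.27 (SE 0.10) and -0.39 (SE 0.12). In KO iTreg its levels were 78.9, 123 and 84.0 CPM in control and 71.9, 74.7 and 71.0 with DFMO. Control library 2 was far above its group, and without it the change was -0.18 and not called (edgeR adjusted p = 0.229). The KO Th17n call was lost without DFMO library 2 (adjusted p = 0.0614) or control library 2 (0.0509). The WT iTreg call was lost without DFMO library 1 (0.120) or 4 (0.0522) or control library 1 (0.0556) or 3 (0.0770).

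Other falls were limited to some cultures. Mrpl14 changed by -0.28 (SE 0.11) in WT Th17n and -0.36 (SE 0.14) in KO Th17n, where it was called, and by 0.25 and -0.06 in WT and KO iTreg, where it was not. These 2 calls were fragile: leaving out any of 6 of 8 WT libraries (DFMO 1, 2 or 3, control 1, 3 or 4) or 5 of 6 KO libraries (all but control 1) ended them, with edgeR adjusted p of 0.0780 to 0.238. Mrpl48 fell by -0.37 (SE 0.12) in KO Th17n, a call lost without DFMO library 2 (0.110) or 3 (0.102) or control library 2 (0.130). Mrpl1 fell by -0.61 (SE 0.13, adjusted p = 0.000367) in WT iTreg, from 49.9, 44.5, 46.6 and 41.1 CPM to 28.9, 28.2, 31.9 and 30.9, with no overlap. In KO iTreg it fell by -0.42 (SE 0.16, adjusted p = 0.0394), a call lost on leaving out any library but control 3 (0.0546 to 0.175). Mrps10 fell by -0.45 (SE 0.11) and Mrps35 by -0.31 (SE 0.092) in WT iTreg, both of the small subunit, and Mrps35 fell by -0.29 (SE 0.11) in KO Th17n. Mrps34, of the small subunit, fell by -0.30 (SE 0.13, edgeR adjusted p = 0.0494) in KO Th17n. It shares 63.4% of its exon bases with Mapk8ip3, so its values are uncertain. Mrps33, also of the small subunit and named after its values were seen, fell by -0.19 (SE 0.079, adjusted p = 0.0484) in WT Th17n, in 3 of 4 animals, and rose by 0.25 (SE 0.079, adjusted p = 0.0113) in WT iTreg.

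The Mrps18 paralogues, whose products occupy different places in the ribosome, were all called higher in WT Th17n, KO Th17n and WT iTreg. In KO iTreg only Mrps18b was called. Their changes were not tested against each other, and Mrps18b shares 30.5% of its exon bases with Gm16279. Mrps18b, of the small subunit, rose by 0.75 (SE 0.090), 0.72 (SE 0.11), 0.59 (SE 0.092) and 0.58 (SE 0.11), each with an edgeR adjusted p of at most 0.000102. Mrps18a, which sits in the large subunit, rose by 0.44 (SE 0.11), 0.44 (SE 0.13) and 0.33 (SE 0.11), and in KO iTreg its change was 0.00 (SE 0.13, adjusted p = 0.989), with levels of 71.3, 69.9 and 74.9 CPM in control and 71.9, 65.0 and 80.5 with DFMO. Mrps18c, of the small subunit, rose by 0.28 (SE 0.098), 0.61 (SE 0.12) and 0.27 (SE 0.099), and in KO iTreg its change was 0.17 (SE 0.12, adjusted p = 0.283). Several of these calls rested on single libraries. The KO Th17n call of Mrps18a was lost without control library 3 (adjusted p = 0.0553), and its WT iTreg call without DFMO library 4 (0.0678) or control library 2 (0.0657) or 4 (0.0892). For Mrps18c the WT Th17n call was lost without control library 2 (0.0566), and the WT iTreg call without DFMO library 3 (0.0866) or control library 2 (0.0727) or 4 (0.0846).

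Mrpl44, which carries an RNase III fold and lies beside the tunnel exit, was not called in any DFMO comparison. In WT Th17n it was 44.8, 49.6, 47.9 and 55.4 CPM in control and 52.5, 48.2, 52.0 and 55.7 with DFMO. Those ranges overlapped almost fully. Its log2 changes were 0.08 (SE 0.10), 0.01 (SE 0.12), 0.12 (SE 0.11) and 0.07 (SE 0.13), with edgeR adjusted p from 0.345 to 0.954. Mrps36, of the alpha-ketoglutarate dehydrogenase complex, was called only in KO Th17n, at 0.34 (SE 0.14, adjusted p = 0.0474), a call lost without DFMO library 1 (0.0552) or 3 (0.0931) or control library 2 (0.140). Its other changes were 0.04, -0.12 and 0.02 in WT Th17n, WT iTreg and KO iTreg.

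Of the 12 members with AAGATGGC in the window, 8 rose and none fell in WT Th17n, 9 and 0 in KO Th17n, 9 and 0 in WT iTreg, and 7 and 0 in KO iTreg, with median log2 changes of 0.53, 0.66, 0.58 and 0.49. Of the 56 matched members without it, 27 rose and 5 fell, 28 and 6, 26 and 5, and 20 and 4, with medians of 0.27, 0.31, 0.27 and 0.14. The word was one of 6 searched, and the contrast is a description with no test. The other words compared did not all differ from it. Of the 5 members with CACGTG, 4, 3, 5 and 4 rose and 0 fell in the same order. Their medians were 0.41, 0.61, 0.46 and 0.62, against 0.31, 0.37, 0.27 and 0.13 in the 63 without it. Members with this word thus also had the higher medians. The 23 members with CCGGAAG had medians of 0.25, 0.28, 0.30 and 0.16, against 0.38, 0.50, 0.28 and 0.15 in the 45 without it. The 27 members with CCAAT had medians of 0.41, 0.37, 0.44 and 0.32, against 0.25, 0.37, 0.26 and 0.07 in the 41 without it. Of the 3 members with the NRF1 site, 0 rose and 0 fell in each comparison. Mrpl41, the gene with the largest rise, was not among the 12.

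The response of some members to DFMO differed between Th17n and iTreg cells, as tested by the difference of the 2 changes, Th17n minus iTreg. In WT cells 3 members had a higher change in Th17n and 6 a lower one, where 8.73% of all genes were called either way. In KO cells 3 were higher and 1 lower, where 5.9% of all genes were called. In both genotypes the share of members called was close to that of all genes, so the calls describe single genes and not the set. These differences draw on the same libraries as the DFMO comparisons. With limma on log2(TPM + 1) the splits were 8 higher and 1 lower in WT and 6 and 0 in KO. The median of all genes moved on that scale to 0.19 in WT and 0.10 in KO, and the members' medians were 0.24 and 0.25.

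Mrpl33, a small large-subunit protein with a bacterial counterpart, gave the largest of these differences in WT. Its Th17n levels in WT were 118, 126, 140 and 130 CPM in control and 99.1, 112, 118 and 119 with DFMO, and its iTreg levels were 67.3, 58.7, 70.0 and 71.1 in control and 96.4, 89.7, 97.8 and 113 with DFMO. In each of the 4 animals the DFMO library was below its control in Th17n and above it in iTreg. In KO Th17n it went from 136, 122 and 137 to 93.2, 104 and 113, and in KO iTreg from 70.6, 81.0 and 69.3 to 82.3, 81.5 and 90.0. The KO libraries showed the same 2 directions, with animal 2 nearly level in iTreg. The log2 change with DFMO was -0.20 (SE 0.087, edgeR adjusted p = 0.0592) in WT Th17n, -0.35 (SE 0.10, adjusted p = 0.00594) in KO Th17n, 0.57 (SE 0.092, adjusted p = 6.978e-06) in WT iTreg and 0.20 (SE 0.11, adjusted p = 0.145) in KO iTreg. The difference, Th17n minus iTreg, was -0.77 (SE 0.13, adjusted p = 0.000175) in WT and was called with each of the 16 libraries left out in turn and on the TPM scale. In KO it was -0.55 (SE 0.15, adjusted p = 0.0234), and it was not called on the TPM scale (adjusted p = 0.101) or without DFMO Th17n library 1 or 2, control Th17n library 1 or 3, DFMO iTreg library 3 or control iTreg library 1 or 3 (0.0617 to 0.122).

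Mrps6, of the small subunit, rose in both cultures and by more in iTreg. In WT Th17n its levels went from 115, 95.2, 101 and 98.5 CPM to 183, 159, 164 and 160, and in WT iTreg from 94.2, 91.1, 96.3 and 96.5 to 235, 210, 227 and 227. In control the level was higher in Th17n in each of the 4 animals, with ranges that overlapped between 95.2 and 96.5 CPM, and the log2 difference of 0.12 (SE 0.075, edgeR adjusted p = 0.227) was not called. Every iTreg DFMO library was above every Th17n DFMO library. The log2 changes were 0.70 (SE 0.073) and 1.25 (SE 0.074), and the difference was -0.55 (SE 0.10, edgeR adjusted p = 0.000841). In KO the changes were 0.69 (SE 0.087) and 0.99 (SE 0.087). On the TPM scale the WT difference was -0.27 and was not called (limma adjusted p = 0.137). The gene shares 19.9% of its exon bases with Gm49711 and 10.4% with Slc5a3, both on the same strand.

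Mrps5, of the small subunit, differed in the other direction in both genotypes. In WT Th17n it went from 65.1, 66.3, 57.7 and 61.5 CPM to 95.4, 82.4, 93.4 and 72.9, and in WT iTreg it was 101, 93.5, 91.3 and 95.8 in control and 100, 76.6, 99.9 and 99.8 with DFMO. In Th17n the groups were apart, and in iTreg they overlapped, with DFMO library 2 the lowest. The difference was 0.48 (SE 0.14, edgeR adjusted p = 0.0235) in WT and 0.63 (SE 0.16, adjusted p = 0.0169) in KO. Each was lost without 1 library, at 0.44 (adjusted p = 0.0548) without WT control Th17n library 3 and at 0.54 (adjusted p = 0.0590) without KO control Th17n library 3. On the TPM scale the WT call remained (0.80, limma adjusted p = 0.0058) and the KO one was 0.61 (adjusted p = 0.0913).

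In KO cells Mrps14, of the small subunit, rose in Th17n from 69.7, 59.3 and 74.9 CPM to 112, 109 and 112, and was 98.1, 112 and 101 in control and 96.8, 109 and 103 with DFMO in iTreg. The difference was 0.71 (SE 0.16, edgeR adjusted p = 0.00456) and was called with each of the 12 libraries left out. Mrpl22 in KO had 0.72 (SE 0.19, adjusted p = 0.0218), lost without DFMO Th17n library 3, control Th17n library 3, DFMO iTreg library 1 or control iTreg library 2 (0.0546 to 0.0825).

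In WT, Mrpl47 had 0.58 (SE 0.17, adjusted p = 0.0247), Mrps10 0.51 (SE 0.16, adjusted p = 0.0438), Mrps21 -0.54 (SE 0.15, adjusted p = 0.0247), Mrpl14 -0.53 (SE 0.16, adjusted p = 0.0345) and Mrps34 -0.47 (SE 0.15, adjusted p = 0.048). Mrps33, the sixth lower call and likewise chosen after its values were seen, had -0.43 (SE 0.11, adjusted p = 0.0125) and was called with each of the 16 libraries left out. Mrpl47 was lost without DFMO Th17n library 1 or control Th17n library 3 or 4 (edgeR adjusted p 0.0506 to 0.0604), and Mrps10 without these, control Th17n library 2, DFMO iTreg library 1 or control iTreg library 3 (0.0548 to 0.105). Mrps21 was lost on leaving out 9 of the 16 libraries (DFMO Th17n 1 or 4, control Th17n 1, DFMO iTreg 1, 3 or 4, control iTreg 1, 2 or 3; 0.0545 to 0.109). Mrpl14 was lost on leaving out any but DFMO Th17n library 4, control Th17n library 2 and DFMO iTreg library 2 (0.0523 to 0.141), and Mrps34 on leaving out any but DFMO iTreg library 2 (0.0510 to 0.186). The number of WT calls was 9, and it was 5, 4, 5, 5 and 5 without DFMO Th17n library 1, control Th17n library 3, control Th17n library 4, DFMO iTreg library 1 and control iTreg library 3. The KO count of 4 was 1 without control Th17n library 3.

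Without DFMO, most members that differed between the cultures were lower in Th17n than in iTreg cells. In WT 2 members were higher and 23 lower, where 19.9% and 20% of all tested genes were, and in KO 1 was higher and 25 lower, where 17.8% and 17.6% were. The median log2 difference of the members was -0.18 and -0.26, and that of all genes -0.02 in each. Lower in both genotypes were 13, which is 56.5% of the 23 and 52% of the 25: Mrpl13, Mrpl16, Mrpl21, Mrpl28, Mrpl39, Mrpl42, Mrpl47, Mrps5, Mrps10, Mrps11, Mrps15, Mrps16 and Mrps17. The share of all tested genes lower in both genotypes was not counted, so this overlap has no background to be read against. The KO count of lower members was 16 without KO control iTreg library 1.

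Mrpl13 went furthest down in WT, with 44.3, 44.0, 51.7 and 52.8 CPM in Th17n and 75.5, 81.4, 82.4 and 84.3 in iTreg. The ranges were far apart. Its log2 difference was -0.74 (SE 0.094, edgeR adjusted p = 1.399e-07), and in KO it was -0.69 (SE 0.12, adjusted p = 2.647e-05). In WT, Mrpl47 followed with -0.74, Mrpl16 with -0.70, Mrpl42 with -0.63 and Mrps5 with -0.61. In KO the largest were Mrps11 with -0.97, Mrpl47 with -0.83, Mrpl22 with -0.77 and Mrpl16 with -0.70. Mrpl33 went the other way, at 0.95 (SE 0.090, adjusted p = 6.232e-10) in WT and 0.84 (SE 0.11, adjusted p = 2.533e-07) in KO. Mrpl45 was the other WT member called higher, at 0.19 (SE 0.074, adjusted p = 0.0391), a call lost without any of control Th17n libraries 1, 2 or 3 or control iTreg libraries 1 or 2 (0.0671 to 0.314).

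With DFMO, 0 members were higher and 26 lower in Th17n than in iTreg in WT, where 13.1% and 16.3% of all genes were, and 1 was higher and 8 lower in KO, where 9.89% and 10.8% were. In WT 34 members had an unadjusted edgeR p under 0.05, DESeq2 called 0 higher and 23 lower, and limma on log2(TPM + 1) called 5 higher and 5 lower. On that scale the median of all genes was 0.15 in WT, the members' median was 0.04, and in KO 5 members were higher and 3 lower. Relative to all genes the members' median was lower by 0.17 in the edgeR fit and by 0.11 on the TPM scale in WT. The mean Th17n to iTreg ratio of the summed level in WT was 0.908 in control and 0.868 with DFMO on the TMM scale, and 0.895 and 1.00 on the TPM scale. In KO with DFMO it was 0.918 (below 1 in 3 of 3 animals) on the TMM scale and 1.01 (below 1 in 1 of 3) on the TPM scale. The WT count of lower members was 15 without DFMO iTreg library 3 and 15 without DFMO iTreg library 4. The KO count of 9 called members was 3 to 4 without DFMO Th17n library 1, 2 or 3 or DFMO iTreg library 1 or 3.

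Lower in both genotypes with DFMO were 7 members, 26.9% of the 26 and 87.5% of the 8: Mrpl12, Mrpl13, Mrpl14, Mrpl18, Mrpl42, Mrps6 and Mrps21. For all tested genes the share lower in both was not counted here either. Mrpl13 was -0.92 (SE 0.091, edgeR adjusted p = 2.435e-09) in WT and -0.56 (SE 0.10, adjusted p = 0.000151) in KO. Mrpl42 was -0.66 and -0.57, and Mrps21 -0.60 and -0.38. In WT Mrpl11 was -0.61 and Mrpl37 -0.55, and in KO Mrpl14 was -0.40 and Mrpl12 -0.34. The KO calls of Mrpl14, Mrps21, Mrpl12 and Mrpl33 (0.29, adjusted p = 0.0436) were each lost without DFMO iTreg library 1, and without further libraries in turn: all 5 others for Mrpl14, DFMO Th17n 1, 2 or 3 or DFMO iTreg 3 for Mrpl12, DFMO Th17n 1 or 2 or DFMO iTreg 3 for Mrps21, and DFMO Th17n 3 or DFMO iTreg 2 for Mrpl33 (0.0601 to 0.330).

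Between KO and WT cells, 0 members were called in Th17n cultures and 4 in iTreg cultures. In control Th17n cells 0 members were called, where 3.04% of all genes were. In DFMO Th17n cells 0 were called, where 1.02% were. At an unadjusted edgeR p under 0.05 there were 9 and 4 members. DESeq2 called 0 in each, and limma on log2(TPM + 1) called 2 lower in control and 0 with DFMO. The members' median log2 difference, KO minus WT, was -0.10 and -0.03, and that of all genes -0.01 and 0.00. In control Th17n, 1 member was called without WT control library 2.

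In control iTreg cells 2 members were lower in KO, where 5.3% of all genes differed either way, and in DFMO iTreg cells another 2 were lower, where 4.14% differed. Mrps22, of the small subunit, was 44.8, 46.2, 45.3 and 47.4 CPM in WT and 33.7, 32.1 and 29.1 in KO in control iTreg. The ranges were apart. Its log2 difference was -0.54 (SE 0.16, edgeR adjusted p = 0.0453). Mrpl35, of the large subunit, was 94.9, 91.1, 95.0 and 95.5 in WT and 66.2, 79.0 and 68.3 in KO, with a difference of -0.40 (SE 0.11, adjusted p = 0.0338). With DFMO, Mrpl53 was 53.7, 47.2, 60.2 and 49.4 in WT and 40.7, 33.6 and 36.3 in KO (-0.52, SE 0.12, adjusted p = 0.00804), and Mrpl13 was 139, 126, 141 and 141 in WT and 100, 94.8 and 117 in KO (-0.40, SE 0.097, adjusted p = 0.0142). Of the Mrpl53 exon bases 88.0% also belong to Gm42688, so its values are uncertain. All 4 pairs of groups were separate, yet each call was lost without some library. The Mrps22 call was lost on leaving out any of the 7 libraries (0.0693 to 0.201) and the Mrpl35 call without KO library 1 or 3 or WT library 1, 3 or 4 (0.0630 to 0.1798). The Mrpl13 call was lost without KO library 1 (adjusted p = 0.0751) or 2 (0.119), and the Mrpl53 call without KO library 2 (0.0774) or WT library 3 (0.0510). The control iTreg count of 2 was 0 without KO library 1 or WT library 1, 3 or 4, and was 1 higher and 0 lower without KO library 3. The DFMO iTreg count of 2 was 7 without WT DFMO library 2, 0 without KO library 2, and 1 without KO library 1 or WT library 3.

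The response of the members to DFMO was not called different between the genotypes. Of the 77, 0 passed in Th17n, where 0.328% of all genes (36) did, and 0 in iTreg, where 0.246% (27) did. At an unadjusted edgeR p under 0.05 there were 3 and 7 members, and neither DESeq2 nor limma on log2(TPM + 1) called any. The differences, KO minus WT, ran from -0.23 to 0.38 in Th17n and from -0.43 to 0.53 in iTreg on the log2 scale.

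Genes that work with the mitochondrial ribosome were read from lists, in the order WT Th17n, KO Th17n, WT iTreg, KO iTreg. Of all tested genes 23.4%, 21.1%, 23.1% and 19% rose and 28.4%, 24.6%, 24.3% and 19.1% fell. Up to 3 genes per list were picked by smallest adjusted p, so they do not show the balance of a list. Of 7 proteins of the ribosome or bound to it, under other symbols, 2, 2, 2 and 2 rose and 4, 4, 0 and 4 fell. In WT Th17n Ptcd3, a small-subunit protein with RNA-binding repeats, rose by 0.47 (edgeR adjusted p = 6.081e-05), Gadd45gip1 fell by -0.54 (adjusted p = 1.536e-05), and Oxa1l, the insertase that receives new proteins at the exit, fell by -0.57 (adjusted p = 1.801e-06). Of 15 mitochondrial translation factors, 4, 5, 6 and 6 rose and 3, 0, 2 and 0 fell. Pdf, which removes the formyl group from new proteins, rose by 2.00 (adjusted p = 4.023e-07), Mtrf1l, a release factor, by 1.64, and Gfm1, the elongation factor G1, by 0.47 in WT Th17n. Of 28 assembly factors 8, 7, 7 and 4 rose and 8, 6, 5 and 5 fell, with Trub2 at 1.07, Fastkd2 at 0.91 and Rpusd4 at -0.68 in WT Th17n. Of 22 mitochondrial tRNA synthetases 5 rose in each comparison and 4, 3, 4 and 2 fell, with Yars2 at 1.76, Iars2 at 1.26 and Mars2 at 0.97.

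Of 12 genes of mitochondrial DNA transcription and replication 4, 2, 2 and 2 rose and 3, 1, 3 and 1 fell. In WT Th17n Primpol, a primase, was at -1.45 (edgeR adjusted p = 2.412e-08), Polg, the replicative polymerase, at 0.66 and Mgme1, a nuclease, at 0.65. Of 13 genes of mitochondrial RNA processing 6, 7, 7 and 6 rose and 1, 1, 2 and 1 fell, with Elac2, which cuts tRNA 3′ ends, at 1.48 (adjusted p = 8.079e-10), Tbrg4 at 0.90 and the only faller in WT Th17n, Hsd17b10, at -0.91. Of 13 regulators of mitochondrial biogenesis 6, 4, 4 and 4 rose and 1, 1, 2 and 1 fell, with C1qbp at 0.86, Pprc1 at 0.69 and the only faller in WT Th17n, Ddit3, at -0.65. Of 15 polyamine and hypusine genes 9, 7, 7 and 5 rose and 5, 4, 5 and 5 fell, and Srm, spermidine synthase, rose by 3.22 (adjusted p = 3.846e-15) in WT Th17n, with Amd1 at 1.39 and Oaz2, an antizyme, at -1.81.

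The import and nucleolar lists held a larger share of risers than the ribosomal protein genes in all 4 comparisons. Of 26 genes of mitochondrial protein import 21, 22, 18 and 19 rose and 2, 2, 0 and 0 fell, with medians of 0.62, 0.73, 0.56 and 0.55. In WT Th17n Timm10 was at 1.62, Tomm5 at 1.08 and the chaperonin Hspd1 at 1.00, and the fallers were Timm17b at -0.34 and Timm44 at -0.24. Of 29 genes of nucleolar ribosome synthesis 27, 27, 28 and 27 rose and 0 fell, with medians of 0.91, 1.07, 0.99 and 1.02. In WT Th17n Nolc1 was at 1.61 (edgeR adjusted p = 3.987e-14), Nop56 at 1.47 and Nop58 at 1.14. No test compared one list with another.

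The 13 proteins that the mitochondrial ribosome makes are encoded in mitochondrial DNA, and their RNAs were also in the files. Of the 13, 4 rose and 2 fell in WT Th17n, 8 and 0 in KO Th17n, 3 and 2 in WT iTreg, and 8 and 0 in KO iTreg. In WT Th17n mt-Nd4l was at 1.52 (edgeR adjusted p = 0.00182), mt-Nd1 at 0.91, mt-Nd5 at 0.75, mt-Co1 at -0.67 and mt-Nd6 at -0.72. Their summed TPM ran from 5580 to 21370 over the libraries. On the TPM scale the ratio of DFMO to control within animals was 1.19 ± 0.087 in WT Th17n (above 1 in 4 of 4), 1.77 ± 0.24 in KO Th17n (3 of 3), 0.941 ± 0.237 in WT iTreg (1 of 4) and 1.65 ± 0.089 in KO iTreg (3 of 3). On the TMM-scaled CPM the sum was higher with DFMO in 3 of 4 WT Th17n, 2 of 4 WT iTreg and all KO animals.

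**Figure D4:**
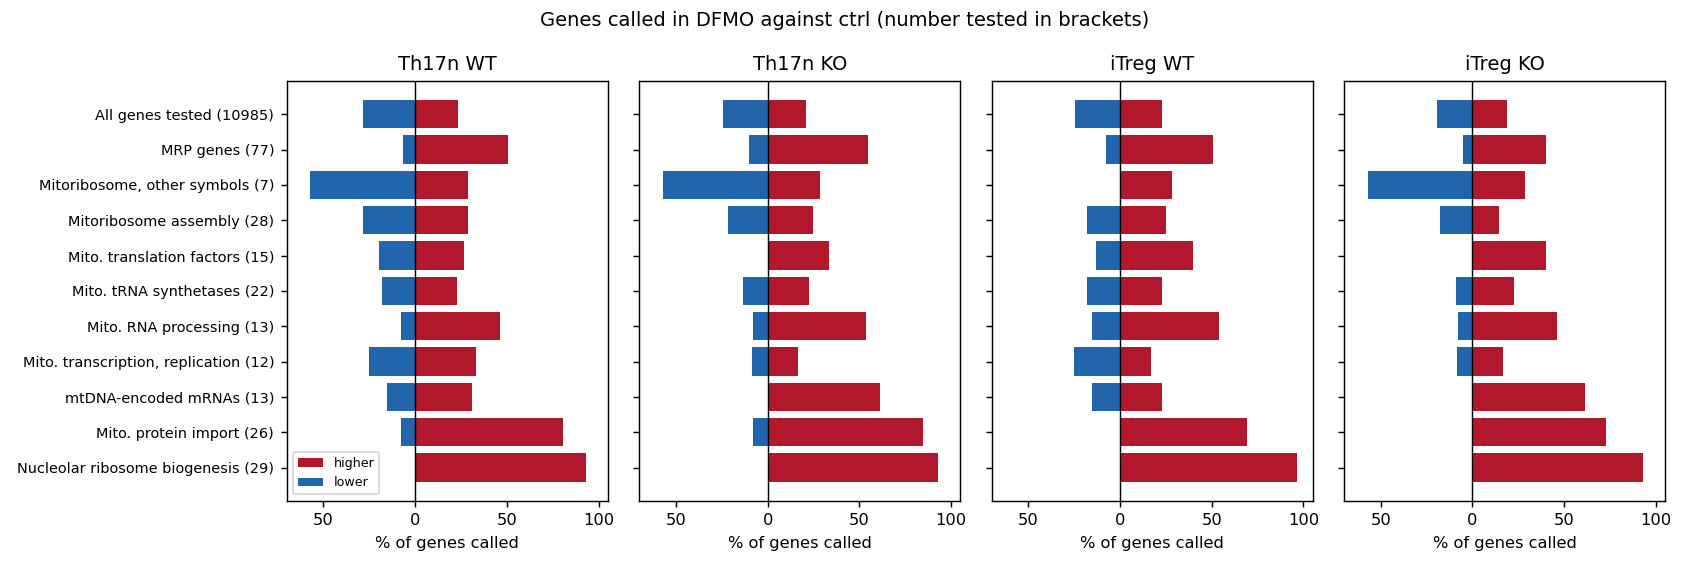
Percent of each gene list called higher (to the right of 0) and lower (to the left) with DFMO in the 4 comparisons, for all tested genes, the 77 ribosomal protein genes and 9 lists. The nucleolar and import lists reach furthest to the right, and the ribosomal protein genes lie between them and all genes.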

How the data were processed

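RNA-seq was analysed for 28 libraries of 7 mice. The authors deposited estimated counts and TPM per gene, made with kallisto on GRCm38 per the submitters' processing notes. The version of kallisto is not given in the sources used here. As deposited, 67.2% of the estimated counts were whole within 0.001, and TPM summed to 863920 to 886579 per library over the 20891 genes listed. Estimated counts were rounded, filtered with filterByExpr (10985 genes) and tested with edgeR 4.0.16 (R 4.3.3; TMM, quasi-likelihood, 8 group means, no block, 20 residual degrees of freedom), with Benjamini-Hochberg adjustment over all tested genes. Standard errors are the log2 change divided by the square root of F. Alternatives used limma 3.58.1 on log2(TPM + 1) and log2(TPM + 0.1), DESeq2 1.42.0, its size factors in edgeR, no filter, only the compared groups, the replicate block, and each library left out. Values per library are TMM-scaled CPM. The scripts were tested on simulated data with known changes. Libraries were tied to animals by the genotype and number in their titles, so within a genotype the 4 libraries of an animal are taken as paired. Deviations from group means correlated at 0.096 on average within an animal (42 pairs, -0.032 to 0.313) and at -0.037 between animals of a genotype (108 pairs). Libraries of the same number in the other genotype, which are different animals, correlated at 0.078 (48 pairs), and those of another number at -0.026 (144 pairs). Exon overlaps used a GENCODE annotation of the same build and promoters a RefSeq table. Counting error falls with depth, and totals of 2226914 to 4759290 limit the precision of genes at few counts.

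The members, gene lists and tests were chosen with earlier results of these data known. Named members were those of known position or paralogy, the 5 largest called rises and falls in each DFMO and culture comparison with a mean of at least 10 CPM and the same direction in every animal, up to 5 called members each way in the genotype and interaction comparisons, up to 3 genes of smallest adjusted p per other list, and the highest and lowest by TPM. A further marker list is not reported here.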

Additional observations from a re-analysis of the deposited data

Results flagged for a closer look

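Among 148 groups of 4 WT libraries tested for a library far from the others (gap over range above Dixon's critical value), 8 were marked, and chance marks about 1 in 20. In control Th17n, Mrps18a was 67.7 CPM in library 1 (others 51.5 to 52.8), Mrps22 was 54.3 in library 3 (36.1 to 38.7) and Mrps36 was 42.0 in library 2 (53.2 to 55.1). In control iTreg, Mrpl35 was 91.1 in library 2 (94.9 to 95.5), Mrps10 was 42.5 in library 2 (51.6 to 51.9) and Mrps14 was 97.2 in library 4 (89.6 to 90.5). In DFMO iTreg, library 2 was the low one for Mrpl13, at 126 (139 to 141), and for Mrps5, at 76.6 (99.8 to 100.5).

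The other marks were changes with DFMO that differed between Th17n and iTreg cells by the edgeR test of the difference, Th17n minus iTreg, on the log2 scale. In WT these were Mrpl47 0.58, Mrps10 0.51, Mrps5 0.48, Mrpl33 -0.77, Mrps6 -0.55, Mrps21 -0.54, Mrpl14 -0.53, Mrps34 -0.47 and Mrps33 -0.43. In KO they were Mrpl22 0.72, Mrps14 0.71, Mrps5 0.63 and Mrpl33 -0.55.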

How the results depend on the processing

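No called value of a named gene changed direction under an alternative. The members' median for Th17n against iTreg with DFMO did: it was -0.19 in WT and -0.11 in KO, and 0.04 and 0.03 on log2(TPM + 1). So did their median for the WT difference of DFMO changes between cultures (-0.03, and 0.24 on that scale and 0.02 with no filter) and for that between genotypes in iTreg (-0.06, and 0.08 on that scale). Of the values for named genes 3037 kept their side of the threshold, 227 lost it and 22 gained it. Counts of called members that moved were as follows. KO against WT in control Th17n had 0, and 1 on log2(TPM + 0.1), 2 on log2(TPM + 1), 1 with no filter and 0 to 1 with a library left out. In control iTreg it had 2, and 1 with only the compared groups and 0 to 2 with a library left out. In DFMO iTreg it had 2, and 1 on each TPM scale, 0 with only the compared groups and 0 to 7 with a library left out. Th17n against iTreg had 26 in WT with DFMO, and 10 on each TPM scale, 15 with no filter, 17 with only the compared groups and 16 to 29 with a library left out. It had 9 in KO with DFMO, and 4 with no filter and 3 to 9 with a library left out, and 26 in KO control, with 17 to 30, and 25 in WT control, with 18 to 34. The difference of DFMO changes between cultures had 9 in WT, and 3 with no filter, 5 with only the compared groups and 4 to 9 with a library left out, and 4 in KO, with 1 to 5. The summed ratio in WT iTreg was 1.24, and 1.12 without TMM and 1.09 on TPM, and in KO iTreg 1.18, and 1.10 and 1.12. The cause of these shifts was not tested. With a library left out the 4 DFMO comparisons gave 41 to 47, 43 to 49, 40 to 52 and 28 to 34 called members. The 25 members higher in all 4 were 24 with DESeq2, 25 with no filter (22 of them the same) and 24 with only the compared groups (21 the same). With the animal as replicate block they were 29, including all 25, and the DFMO comparisons had 42 higher and 7 lower, 44 and 8, 40 and 7, and 34 and 6. The block ended no named member's call and moved no count by over 1.5 times. For KO against WT the numbers join different animals. With 3 or 4 libraries a group, small changes of genes at few counts may have been missed.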
